A study of Mus musculus with 17 samples.

Results

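Transcripts of 35 aminoacyl-tRNA synthetase genes were measured in haematopoietic stem cells (HSCs) of mice by bulk RNA sequencing. The genes were taken by symbol, 19 for cytosolic enzymes and 16 for mitochondrial enzymes, whose symbols end in 2, out of the 54838 genes in the count tables. All 35 were found, and all 35 were among the 24523 genes that passed the filter on low counts.

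Aminoacyl-tRNA synthetases attach each amino acid to its tRNA, the step that lets the ribosome read the genetic code. Nuclear genes encode separate sets of enzymes for the cytosol and for the mitochondrial matrix, where the tRNAs come from mitochondrial DNA. Gars (glycine) and Kars (lysine) are known to serve both places from the same gene, and mitochondria have no glutaminyl-tRNA synthetase because an amidotransferase makes their glutaminyl-tRNA. When amino acids run short or mitochondria are stressed, kinases of the initiation factor eIF2α raise translation of the transcription factor ATF4, whose known targets include many cytosolic synthetases. HSCs are known for a low rate of protein synthesis.

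The mice were C57BL/6 Jrj. Marrow cells enriched for c-kit were sorted into trizol as live cells without lineage markers that were cKit+ Sca1+ CD48- CD150+, and libraries were made with a Nextera XT kit at reduced volume. Young mice (8 to 12 weeks) gave a control group (n = 4) and a group given CCCP, a protonophore that uncouples mitochondria, as 1 injection of 0.3 mg/kg (n = 5). Mice over 18 months old gave a control group (n = 3) and a group given Mito-Q, an antioxidant that accumulates in mitochondria, as 5 daily injections of 2 mg/kg (n = 5). Vehicle for the controls, the time after injection and the number of mice behind a library are not given in the labels, so the p-values measure the spread between libraries. There were 3 comparisons, of old and young controls, of Mito-Q and control in old mice, and of CCCP and control in young mice. The age comparison shares its libraries with both treatments.

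The libraries held 5649611 to 8120443 reads in genes, and 3 reads corresponded to between 0.298 and 0.653 CPM (read counts scaled to the size of the library). Reads in no gene made up 20.1% to 65.5% of the reads that were assigned, left unassigned or ambiguous, with the highest share in young CCCP 3. The gate markers Kit, Slamf1 and Ly6a had reads in every library, as did Procr, an HSC marker outside the gate. Cd48, which the gate excludes, ranged from 0 to 19.2 CPM. The other genes listed with it as markers of cells outside the gate were Ly6g, Fcgr3, Itgam and Flt3. Ly6g ranged from 0 to 53.7 CPM (highest in young CCCP 3), and Fcgr3 from 0 to 43.9 and Itgam from 0 to 7.86 CPM (both highest in young CCCP 4). Flt3 ranged from 1.06 to 129 CPM, highest in young control 4. The 10 neutrophil and granule markers, led by S100a8, S100a9 and Ngp, summed to 416 to 2198 CPM in young controls, 762 to 16321 CPM with CCCP, 1089 to 2393 CPM in old controls and 983 to 14235 CPM with Mito-Q. The 8 erythroid markers, led by Hbb-bs, Hba-a1 and Hbb-bt, summed to 68.2 to 1255 CPM. The 6 B cell markers, led by Cd79b, Ebf1 and Ms4a1, summed to 39.8 to 191 CPM. The 6 T and NK cell markers, led by Nkg7, Klrb1c and Cd3e, of which 4 passed the filter, summed to 78.7 to 263 CPM. The part of all these markers in the results was not tested.

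Of the cytosolic genes, 5 carry, near the start of the transcript, the letters of the C/EBP-ATF response element, which ATF4 is known to bind with C/EBP partners. Their promoters are shown because edgeR called Atf4 RNA with CCCP and some genes of the amino acid response in each comparison, but no synthetase. Each sequence runs from 120 bases before the RefSeq transcript start to base 20 of the transcript (RefSeq, GRCm38.p6), 5′ to 3′ on the gene's strand, and capitals mark TGATGNAA or its reverse complement TTNCATCA. In order, they lie at chr4:129189783-129189922 (+), chr6:55037881-55038020 (+), chr8:111033722-111033861 (+), chr13:49682010-49682149 (+) and chr15:11399639-11399778 (-).
Yars: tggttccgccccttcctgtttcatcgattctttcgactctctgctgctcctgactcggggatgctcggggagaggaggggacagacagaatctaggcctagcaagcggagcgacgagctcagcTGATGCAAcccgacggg
Gars: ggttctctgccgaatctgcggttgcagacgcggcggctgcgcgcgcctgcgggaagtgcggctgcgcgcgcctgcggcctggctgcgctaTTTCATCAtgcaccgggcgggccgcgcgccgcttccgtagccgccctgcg
Aars: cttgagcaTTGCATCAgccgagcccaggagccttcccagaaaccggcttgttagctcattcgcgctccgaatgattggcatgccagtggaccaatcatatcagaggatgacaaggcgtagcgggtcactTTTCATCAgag
Iars: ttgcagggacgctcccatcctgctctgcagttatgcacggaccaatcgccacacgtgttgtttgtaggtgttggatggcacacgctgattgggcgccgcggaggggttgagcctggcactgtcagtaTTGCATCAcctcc
Tars: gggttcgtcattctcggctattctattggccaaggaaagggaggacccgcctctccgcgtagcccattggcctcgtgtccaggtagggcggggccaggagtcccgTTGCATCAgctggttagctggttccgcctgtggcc

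The element lay at base 4 of the transcript in Yars (tyrosine), at base 8 in Iars (isoleucine) and 30 and 15 bases before the start in Gars and Tars (threonine). Aars (alanine) held it 112 bases before the start and again at base 10, and no matches overlapped. In windows from 250 bases before to 50 bases after the start, on both strands, the motif was found in 5 of the 12 cytosolic genes with an entry (41.7%), in 0 of 14 mitochondrial genes and in 1219 of 27025 genes in all (4.51%). Of the 11 cytosolic genes listed as known ATF4 targets, 7 had an entry and 5 of those held the motif. A match is a description of the letters and not of binding. No promoter entry was used for Cars, Hars, Lars, Nars, Rars, Vars, Wars, Hars2 and Pars2.

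Cytosolic synthetases were the more abundant set. Per kilobase (kb) of annotated exon, the median library had 18.4 CPM per kb for the middle cytosolic gene and 5.53 CPM per kb for the middle mitochondrial gene. The highest cytosolic levels were those of Dars (aspartate, 47.96 CPM per kb), Farsb (the beta subunit for phenylalanine, 46.1) and Gars (38.5), and the lowest those of Yars (9.94), Cars (cysteine, 6.68) and Aars (5.90). Among mitochondrial genes Lars2 (leucine, 41.9), Rars2 (arginine, 22.9) and Tars2 (threonine, 15.7) were highest, and Vars2 (valine, 2.95), Mars2 (methionine, 2.07) and Aars2 (alanine, 1.75) lowest. Neighbours in this order overlapped across libraries, as Dars spanned 14.9 to 79.0 CPM per kb and Farsb 22.3 to 75.9. Exon length was that of all annotated exons merged, so a gene with exons that HSCs do not use has its level understated. The rank of Lars2 rests on reads whose source was not tested, as described below.

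**Figure D1:**
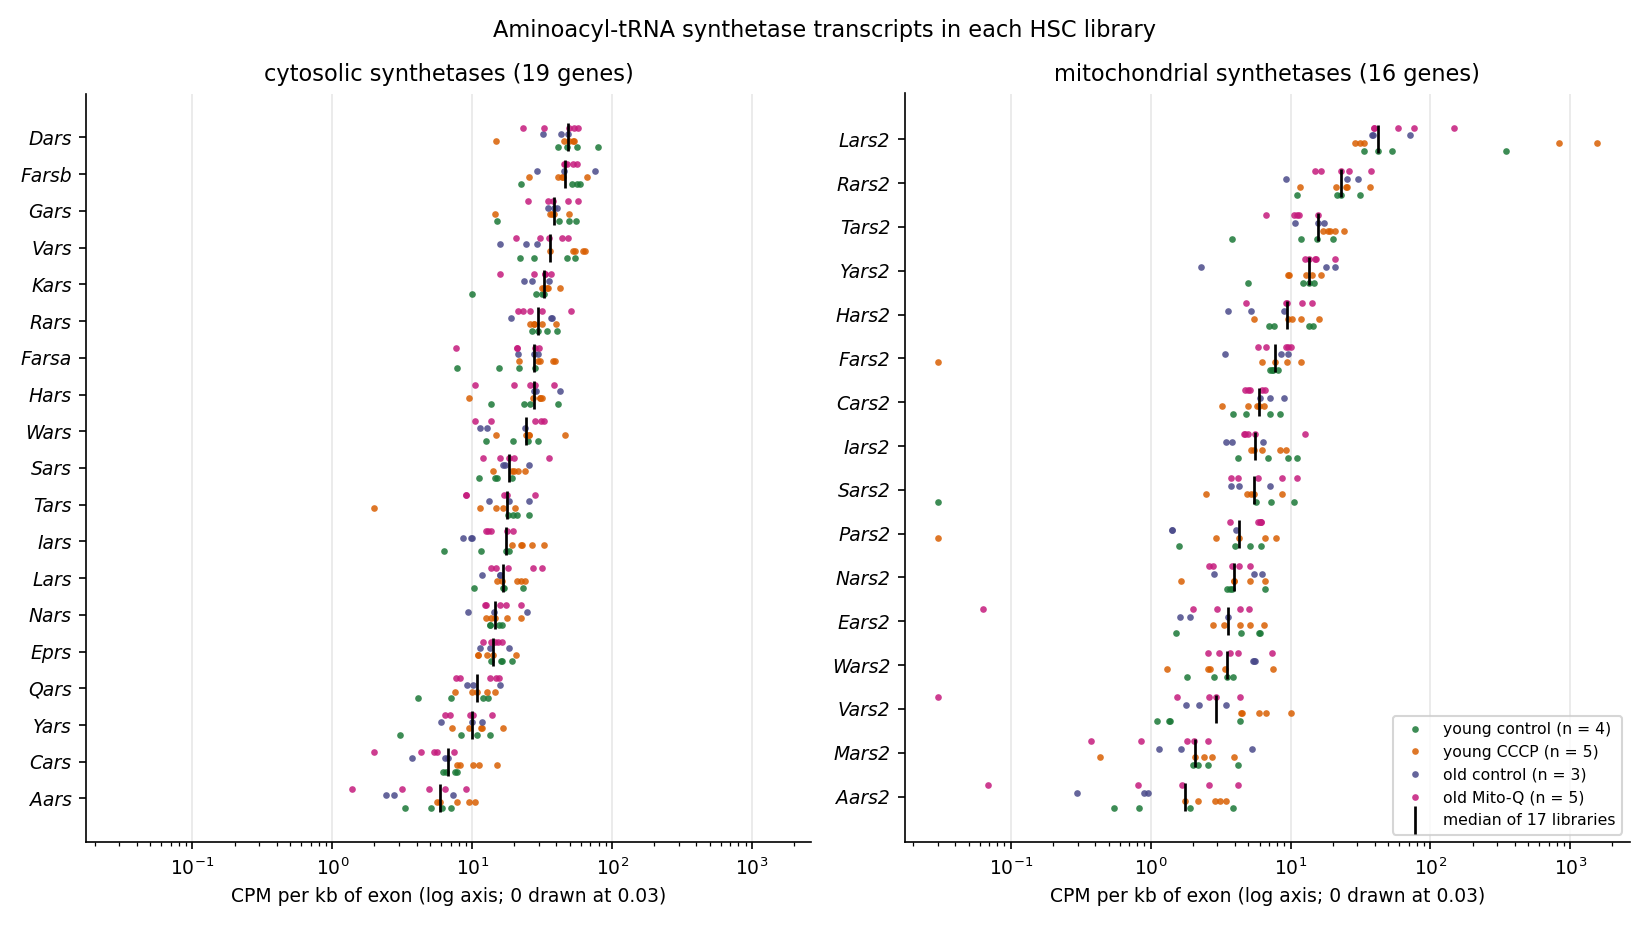
Level of each synthetase in each of the 17 libraries, as CPM per kb of exon on a log axis (values of 0 drawn at 0.03), with a bar at the median library. Cytosolic medians lie between 5.90 and 47.96 and mitochondrial medians between 1.75 and 41.9, and Lars2 has 3 libraries far above its others.

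Almost every gene was detected in every library. Of the 595 values (35 genes in 17 libraries), 4 were 0 reads and 2 were 2 reads, and all 6 were of mitochondrial genes. Fars2 (phenylalanine) and Pars2 (proline) had 0 reads in young CCCP 3, Sars2 (serine) in young control 3 and Vars2 in old Mito-Q 3, while Ears2 (glutamate) in old Mito-Q 3 and Aars2 in old Mito-Q 4 had 2 reads each. A count of 0 there allows up to 0.583, 0.653 and 0.490 CPM in the 3 libraries. These limits cover counting error only, since reads copied by PCR are not independent molecules. Spread within a group was wider for the mitochondrial set, with a median coefficient of variation between 37.2% and 41.6% over the 4 groups, against 27.1% to 33.6% for the cytosolic set. Eprs, the fused enzyme for glutamate and proline, was the steadiest gene, at no more than 28.2% in any group.

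Where the same amino acid has an enzyme in each compartment, the cytosolic gene usually had the higher level. Of 12 such pairs, the median library favoured the cytosolic gene in 10, with a median ratio of 3.02 over the pairs. In 5 pairs it was higher in all 17 libraries, namely Vars (12.1-fold over Vars2), Wars (tryptophan, 6.87-fold), Nars (asparagine, 3.69-fold), Sars (3.37-fold) and Hars (histidine, 2.91-fold). Aars over Aars2 (3.37-fold) and Iars over Iars2 (3.14-fold) each failed in 1 library. Hars and Hars2 lie head to head on chromosome 18 and share 7.97% and 4.56% of their exon length, and 24.2% of the Iars2 exons overlap other genes, mainly Rab3gap2 on the opposite strand. Reads there could not be assigned with certainty, since the strand setting of the counting is not given in the sources used here. Of the Aars exon length, 14.3% overlaps Exosc6 on the same strand, where no strand setting separates the reads. The effect on the Aars level and its ratio was not tested.

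Other pairs were close to equal or turned the other way. Rars over Rars2 stood at 1.29-fold (higher in 14 of 17 libraries), Tars over Tars2 at 1.13-fold (12 of 17) and Cars over Cars2 at 1.12-fold (10 of 17). Yars was at 0.73 times Yars2 and higher in 5 of 17 libraries. Lars was below Lars2 in all 17, at 0.39 times, though the source of the Lars2 reads was not tested, as described below. The joint genes fell in the same range, as Eprs stood 3.97-fold over Ears2 and 3.29-fold over Pars2, and the phenylalanine subunits Farsb and Farsa 5.96-fold and 3.55-fold over Fars2.

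**Figure D2:**
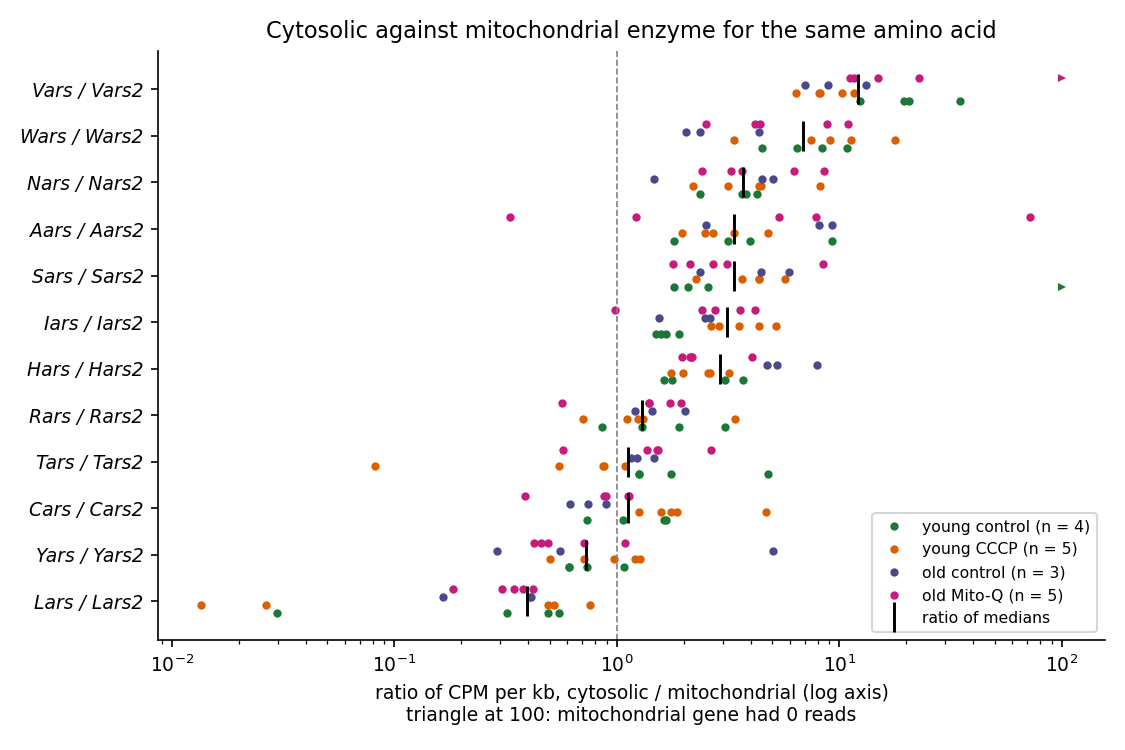
Ratio of CPM per kb between the cytosolic and the mitochondrial gene for the same amino acid, 1 point per library on a log axis, with a bar at the ratio of medians and triangles where the mitochondrial gene had 0 reads. Vars, Wars, Nars, Sars and Hars lie right of 1 in all 17 libraries, and Lars lies left of it in all 17.

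Lars2, the mitochondrial leucyl-tRNA synthetase (chr9:123366927-123462666, GRCm38), did not behave like the other members. Its level was 371, 584, 3812 and 464 CPM in the young controls and 369, 321, 17132, 348 and 9232 CPM with CCCP. The old controls had 792, 425 and 430 CPM, and the Mito-Q libraries 1644, 437, 654, 840 and 434 CPM. Young CCCP 3 and 5 and young control 3 stood far above the rest, so the high libraries came from both young groups and the groups overlapped in every comparison. Lars2 alone made up 33.1% to 97.1% of the summed CPM of the 16 mitochondrial genes.

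The antisense gene Gm15564 (chr16:35966752-35983230), chosen after its values were seen, ran alongside it. It had 376 CPM in young control 3 and 26.9, 50.7 and 34.1 CPM in the other young controls, and 1656 and 571 CPM in young CCCP 3 and 5 against 24.5, 17.4 and 22.7 CPM in the other CCCP libraries. The ratio of Lars2 to Gm15564 stayed between 10.1 and 18.4 in all 17 libraries, whereas Lars2 itself spanned 321 to 17132 CPM. Both transcripts hold a 72-base stretch with 1 mismatch (98.6% identity), which in Lars2 lies in the 3′ untranslated part of exon 21 of 21, at chr9:123462048-123462119 and bases 3278 to 3349 of a 3894-base transcript. Whether reads from that stretch set the Lars2 counts was not tested, as the files give only totals per gene. The mitochondrial ribosomal RNA mt-Rnr2 was highest in young control 3 (42224 CPM), against 4280, 4788 and 3763 CPM in the other young controls. It stood at 13978 and 7264 CPM in young CCCP 3 and 5, against 2520, 4489 and 4710 CPM in the other CCCP libraries. In old Mito-Q 3 and old control 2 it had 19432 and 13979 CPM, where Lars2 had 654 and 425 CPM. The library highest in mt-Rnr2 was not the highest in Lars2, and a link between these RNAs was not tested.

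With Lars2 set aside, a choice made after its values were seen, the summed ratio of the compartments varied less. Part of that narrowing follows from leaving out the gene of widest spread. Summed cytosolic over summed mitochondrial CPM ran from 0.0998 to 2.67 over the 17 libraries with Lars2 and from 3.2 to 4.54 without it. Without Lars2 the young controls had ratios of 3.73, 4.28, 3.72 and 3.66, and the CCCP libraries 3.86, 3.99, 3.46, 4.08 and 3.43. The old controls had 3.75, 3.45 and 4.01, and the Mito-Q libraries 3.83, 4.54, 3.2, 4.19 and 3.80. All 4 groups overlapped. The mean log2 CPM of the cytosolic genes exceeded that of all 16 mitochondrial genes by 1.48 in young controls, 1.503 with CCCP, 1.58 in old controls and 1.55 with Mito-Q, and without Lars2 by 1.78, 1.86, 1.86 and 1.85. In single libraries, with Lars2, this excess ran from 1.04 (young CCCP 5) to 1.82 (young CCCP 3).

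**Figure D3:**
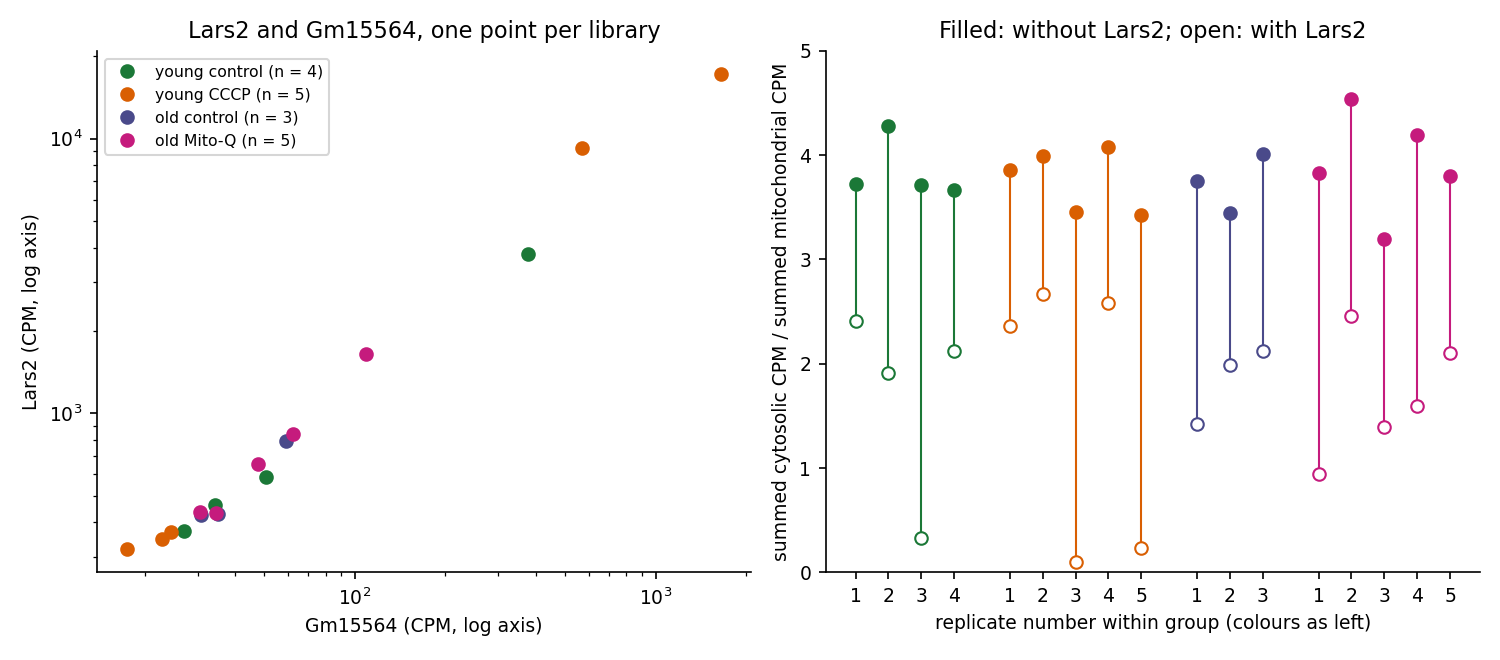
Left, Lars2 against Gm15564 in CPM on log axes, 1 point per library; right, summed cytosolic over summed mitochondrial CPM in each library with Lars2 (open) and without it (filled). The 17 points on the left run along a common line, and the filled points on the right lie between 3.2 and 4.54 in all 4 groups.

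No synthetase was called in old against young HSCs. edgeR's quasi-likelihood test with Benjamini-Hochberg adjustment called 0 of 35 at an adjusted p below 0.05, where it called 1.69% of all genes tested, and 0 of 35 had an unadjusted p below 0.05 against 14.2% of all genes. DESeq2 and limma-voom also called 0, against 6.98% and 1.22% of all genes. The median log2 fold change was -0.10 over the cytosolic genes (8 higher, 11 lower) and -0.04 over the mitochondrial genes (7 higher, 9 lower), against 0.16 over all genes tested, of which 55.4% were higher, and both small medians turned to 0.03 and 0.07 with upper-quartile scaling. The median of all genes itself turned to -0.35 without old control 1. In bulk RNA, fewer cells that express a gene and less RNA per cell cannot be told apart.

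The synthetases of smallest p in this comparison were mostly lower in old HSCs. Vars (valine) had 163, 88.5 and 136 CPM in old controls and 268, 156, 122 and 302 CPM in young controls, so the groups overlapped (129 ± 37.7 and 212 ± 86.4 CPM, SD, n = 3 and 4; log2 fold change -0.71, SE 0.35, edgeR adjusted p = 0.362). Iars2 (isoleucine) had 56.4, 33.7 and 30.8 CPM in old and 98.0, 61.7, 37.2 and 84.6 CPM in young controls, at a fitted log2 difference of -0.80 (SE 0.43). Wars2 (tryptophan), the only member whose groups did not overlap, had 31.9, 32.9 and 32.5 CPM in old and 20.9, 10.8, 16.8 and 23.01 CPM in young controls, at a fitted log2 difference of 0.86 (SE 0.53, edgeR adjusted p = 0.502). Old controls lay above young controls without overlap for 5.04% of all genes and below them for 6.5%. Iars (-0.50), Dars (-0.45) and Farsa (0.52) among cytosolic genes and Hars2 (-0.85) and Aars2 (-1.31) among mitochondrial genes completed the group by log2 fold change. Lars2 stood at -1.25 (SE 1.33) and at 0.19 without young control 3.

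How far a change could be bounded differed between the compartments. The 95% interval of the log2 fold change lay within 2-fold either way for 8 of 19 cytosolic and 2 of 16 mitochondrial genes in old against young HSCs. It did so for 11 and 1 with Mito-Q and for 7 and 5 with CCCP. For the rest, a 2-fold difference in at least 1 direction lay inside the interval, so the absence of a call does not show that their levels were alike. Eprs was bounded most tightly, from -0.77 to 0.40 in old against young HSCs, -0.55 to 0.55 with Mito-Q and -0.74 to 0.28 with CCCP. Farsb, Gars, Nars, Rars and Rars2 also lay within 2-fold in all 3 comparisons. The median SE was between 0.33 and 0.38 for cytosolic genes and between 0.52 and 0.59 for mitochondrial genes.

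**Figure D4:**
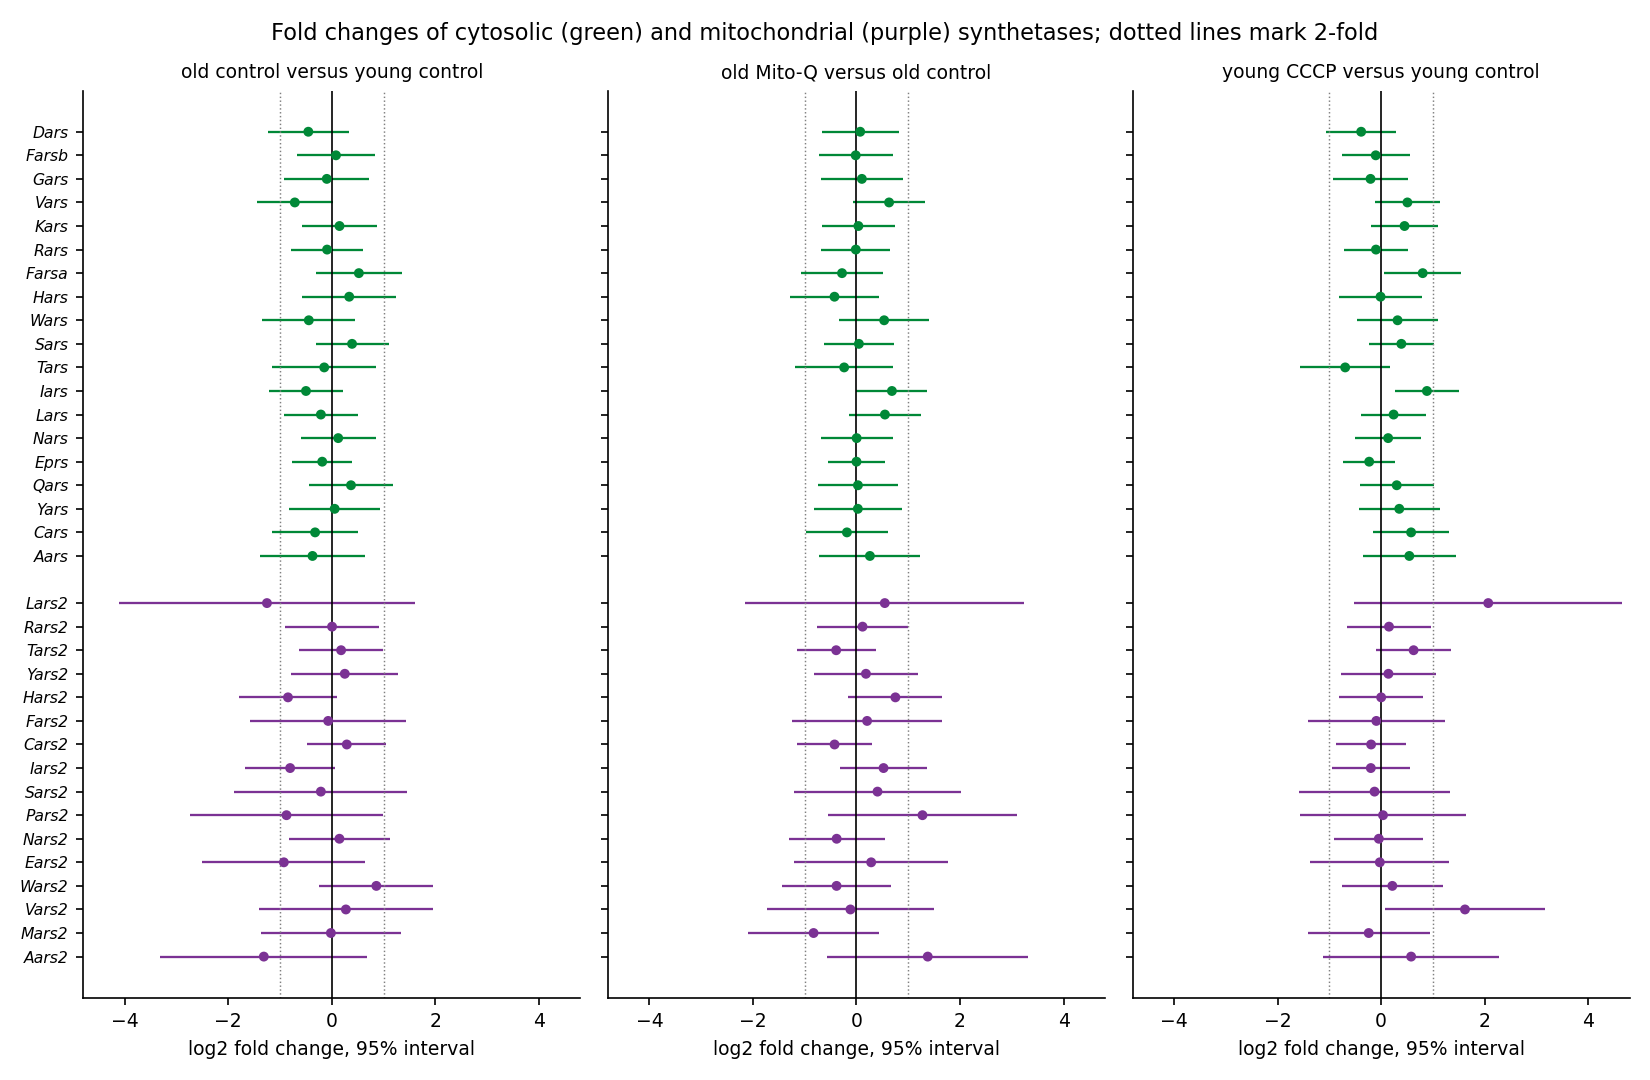
Log2 fold change of each synthetase with its 95% interval in the 3 comparisons, cytosolic genes in green and mitochondrial genes in purple, with dotted lines at 2-fold. Most intervals cross 0, that of Lars2 is the widest, and those of Iars, Farsa and Vars2 with CCCP lie above 0 before adjustment.

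Mito-Q in old mice left no synthetase called either. edgeR called 0 of 35, against 0.542% of all genes, and 0 of 35 had an unadjusted p below 0.05, against 10% of all genes. DESeq2 and limma-voom called 0, against 2.17% and 0.457% of all genes. The median log2 fold change was 0.03 over the cytosolic genes (13 higher, 6 lower) and 0.19 over the mitochondrial genes (10 higher, 6 lower), against -0.12 over all genes, of which 44.9% were higher. The cytosolic median turned to -0.11 with upper-quartile scaling, and the mitochondrial median turned to -0.09 without old control 1, where the median of all genes turned to 0.31.

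Iars came nearest to a change with Mito-Q. It had 65.7, 102, 93.8, 71.4 and 68.4 CPM with Mito-Q and 51.7, 52.7 and 45.4 CPM in old controls (80.3 ± 16.6 and 49.98 ± 3.95 CPM, SD, n = 5 and 3; log2 fold change 0.68, SE 0.33, edgeR adjusted p = 0.497). All Mito-Q libraries lay above all old controls, as they did for 3.87% of all genes, with 2.2% below. Vars (0.63), Lars (0.55) and Wars (0.53) among cytosolic genes and Hars2 (0.75), Aars2 (1.38), Pars2 (1.27) and Mars2 (-0.83) among mitochondrial genes followed by log2 fold change. Mars2 had 60.3 CPM in old control 1 and 12.9 and 18.6 CPM in the other old controls, against 22.9, 20.4, 4.25, 9.60 and 29.1 CPM with Mito-Q, and its log2 fold change was 0.08 without old control 1. Lars2 stood at 0.55 (SE 1.25).

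CCCP in young mice gave the lowest p-values of the 3 comparisons, and again no edgeR call. edgeR called 0 of 35, against 0.718% of all genes, while 3 of 35 (8.57%) had an unadjusted p below 0.05, against 11.2% of all genes. These were Iars (unadjusted p = 0.00743), Farsa (0.0352) and Vars2 (0.0404), all higher with CCCP. limma-voom called 0, against 0.832% of all genes, and DESeq2 called 1, Iars (log2 fold change 0.96, DESeq2 adjusted p = 0.0271), against 2.93% of all genes. The median log2 fold change was 0.30 over the cytosolic genes (12 higher, 7 lower), 0.02 over the mitochondrial genes (8 higher, 8 lower) and 0.21 over all genes, of which 58.7% were higher, and the mitochondrial median turned to -0.04 with upper-quartile scaling.

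Iars, the cytosolic isoleucyl-tRNA synthetase (chr13:49682100-49734267), had 117, 141, 102, 120 and 171 CPM with CCCP and 92.4, 60.8, 33.1 and 95.9 CPM in young controls. Every CCCP library lay above every young control (130 ± 26.9 and 70.5 ± 29.5 CPM, SD, n = 5 and 4; log2 fold change 0.88, SE 0.30, edgeR adjusted p = 0.282). CCCP lay above control without overlap for 1.78% of all genes and below for 2.89%. The processed pseudogene Gm4849, 96.0% identical to Iars over 1656 bases, had 0 to 15 reads per library, at most 3.45% of the Iars reads, in old control 1. Iars also carries the element shown above at base 8 of its transcript.

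Vars2, the mitochondrial valyl-tRNA synthetase (chr17:35655634-35667592), had 24.5, 32.7, 36.4, 23.9 and 54.9 CPM with CCCP and 7.49, 7.37, 6.09 and 23.8 CPM in young controls. The groups did not overlap, though young control 4 came close to the lowest CCCP library (log2 fold change 1.62, SE 0.75, edgeR adjusted p = 0.422). Of its exon length, 8.52% overlaps the antisense gene Gm20483. Farsa, the alpha subunit for phenylalanine, had 138, 172, 98.6, 178 and 133 CPM with CCCP and 97.8, 70.4, 35.2 and 126 CPM in young controls, which overlapped (log2 fold change 0.80, SE 0.36, edgeR adjusted p = 0.410). Its partner Farsb stood at -0.10 (SE 0.32), and the difference between the subunits was not tested. Tars had 97.9, 86.9, 11.7, 119 and 67.5 CPM with CCCP and 151, 124, 107 and 115 CPM in young controls, with the lowest value in young CCCP 3. Its log2 fold change was -0.69 (SE 0.42). Vars (0.51), Tars2 (0.63) and Aars2 (0.58) were the others of smallest p. Lars2 stood at 2.07 (SE 1.20, edgeR adjusted p = 0.572), and at -0.45 without the 4 libraries of highest Lars2, a choice made after its values were seen.

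Other ways of sorting the enzymes gave no calls. Synthetases fall into a pair of structural classes with unlike catalytic folds. Eprs joins an enzyme of each class and was counted in class I. The 18 class I genes had medians of -0.14 in old against young HSCs, 0.07 with Mito-Q and 0.23 with CCCP, and the 17 class II genes -0.07, 0.05 and -0.00. The 7 members known to sit in the cytosolic multisynthetase complex (Dars, Eprs, Iars, Kars, Lars, Qars and Rars) had medians of -0.18, 0.04 and 0.24.

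The genes around tRNA charging gave no calls either. Qrsl1, Gatb and Gatc of the amidotransferase and the formyltransferase Mtfmt act in mitochondria, while Pstk and Sepsecs serve selenocysteine and are not mitochondrial. Together these 6 genes had medians of 0.56, -0.51 and 0.15. Of the 5 cytosolic elongation factors, led by Eef1a1, Eef2 and Eef1b2, and the 9 mitochondrial translation factors, led by Tufm, Mrrf and Gfm2, 0 were called in each comparison, against 1.69%, 0.542% and 0.718% of all genes. Of the mitochondrial factors 8 of 9 had a positive log2 fold change in old against young HSCs (median 0.46), 3 of 9 with Mito-Q (-0.52) and 4 of 9 with CCCP (-0.02). The 4 eIF2α kinases, led by Eif2ak1, Eif2ak4 and Eif2ak2, were not called, with medians of -0.87, 0.32 and -0.21. In old against young HSCs all 4 kinases were negative, and 2 had an unadjusted p below 0.05, against 14.2% of all genes.

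Among genes of the amino acid response, edgeR called some in each comparison, Atf3, Cebpb and Ppp1r15a in all 3, and Atf4 itself only with CCCP. With CCCP 6 of 25 tested genes of that list fell and 0 rose, where edgeR called 0.652% of all genes lower and 0.0652% higher. Atf4 had 84.9, 66.9, 49.0, 76.0 and 88.8 CPM with CCCP and 243, 255, 122 and 240 CPM in young controls. The groups did not overlap (log2 fold change -1.56, SE 0.29, edgeR adjusted p = 0.00331). Slc38a2, an amino acid importer, fell by 1.17 on the log2 scale (edgeR adjusted p = 0.00891, and 0.0561 with library totals as scaling). Slc3a2, a subunit of amino acid transporters, fell by 1.11 (edgeR adjusted p = 0.0437), a call kept in 8 of 20 alternatives and lost without young control 1, 2 or 4 or young CCCP 1, 3, 4 or 5. Cebpb, a transcription factor (-3.49), Atf3, a stress-induced repressor (-6.84), and Ppp1r15a, a phosphatase subunit that reverses eIF2α phosphorylation (-3.23), fell further. Over the same libraries 9 of the 10 neutrophil and granule markers had an unadjusted p below 0.05 (edgeR), all higher, against 11.2% of all genes in either direction. Elane was called. The part of these markers in the changes of the response genes was not tested.

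No synthetase listed as an ATF4 target was called lower with CCCP. Of these 11 cytosolic genes, 0 were called with CCCP. Over all genes 0.718% were called and 0.652% were called lower, so 0 of 11 is close to the share of all genes. Of the 11, 8 had a positive and 3 a negative log2 fold change, with a median of 0.32, where 58.7% of all genes were positive with a median of 0.21. Their summed level was 1064, 1365, 881, 1257 and 1166 CPM with CCCP and 1254, 1047, 808 and 1169 CPM in young controls, which overlapped. The biosynthetic genes Asns (-0.91, SE 0.60), Psat1 (0.20, SE 0.27) and Phgdh (-0.16, SE 0.36) of the response list were not called. Among the 5 genes with the element, the log2 fold changes were 0.54 for Aars, 0.88 for Iars, 0.35 for Yars, -0.21 for Gars and -0.69 for Tars.

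In old against young HSCs edgeR called 5 of the 25 response genes. Nupr1, a stress-induced chromatin protein, rose (3.86, SE 0.51), and Slc38a2 (-1.59), Cebpb (-1.38), Atf3 (-6.59) and Ppp1r15a (-2.88) fell, where 0.522% of all genes were called higher and 1.17% lower. The call was lost for Slc38a2 without old control 2, and for Cebpb without old control 1, 2 or 3 or young control 3 or 4. Atf4 had 70.2, 136 and 131 CPM in old controls, overlapping the young control range (log2 fold change -0.94, SE 0.33, edgeR adjusted p = 0.182). Of the other-cell markers, Prtn3 (2.23) and Klrb1c (3.03) were called higher and Flt3, a progenitor receptor, lower (-3.27) in old HSCs, and their part in these changes was not tested. Of the 11 ATF4-list synthetases, 0 were called, with 3 positive and 8 negative log2 fold changes and a median of -0.18, where 55.4% of all genes were positive with a median of 0.16.

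With Mito-Q, Cebpb (1.82), Atf3 (8.16) and Ppp1r15a (3.60) rose, 3 of 25 response genes, where 0.526% of all genes were called higher and 0.0163% lower. Atf4 had 243, 348, 252, 317 and 191 CPM with Mito-Q, all above the old controls (log2 fold change 1.27, SE 0.33, edgeR adjusted p = 0.0962), and DESeq2 called it. Of the 11 ATF4-list synthetases, 0 were called, with 9 positive and 2 negative log2 fold changes and a median of 0.05, where 44.9% of all genes were positive with a median of -0.12. Their summed levels were 903 to 1218 CPM against 943 to 1030 CPM in old controls. Atf3 is also an immediate early gene. The 12 immediate early genes, such as Fos and Egr1, summed to 15175 to 27591 CPM with Mito-Q, 1045 to 1767 CPM in old controls, 8026 to 14733 CPM in young controls and 389 to 736 CPM with CCCP. Of these 12, edgeR called 12 higher with Mito-Q, 11 lower in old against young HSCs and 12 lower with CCCP. In those directions it called 0.526%, 1.17% and 0.652% of all genes. Atf3, Cebpb and Ppp1r15a were called in the same directions, and the part of the immediate early genes in their changes was not tested.

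**Figure D5:**
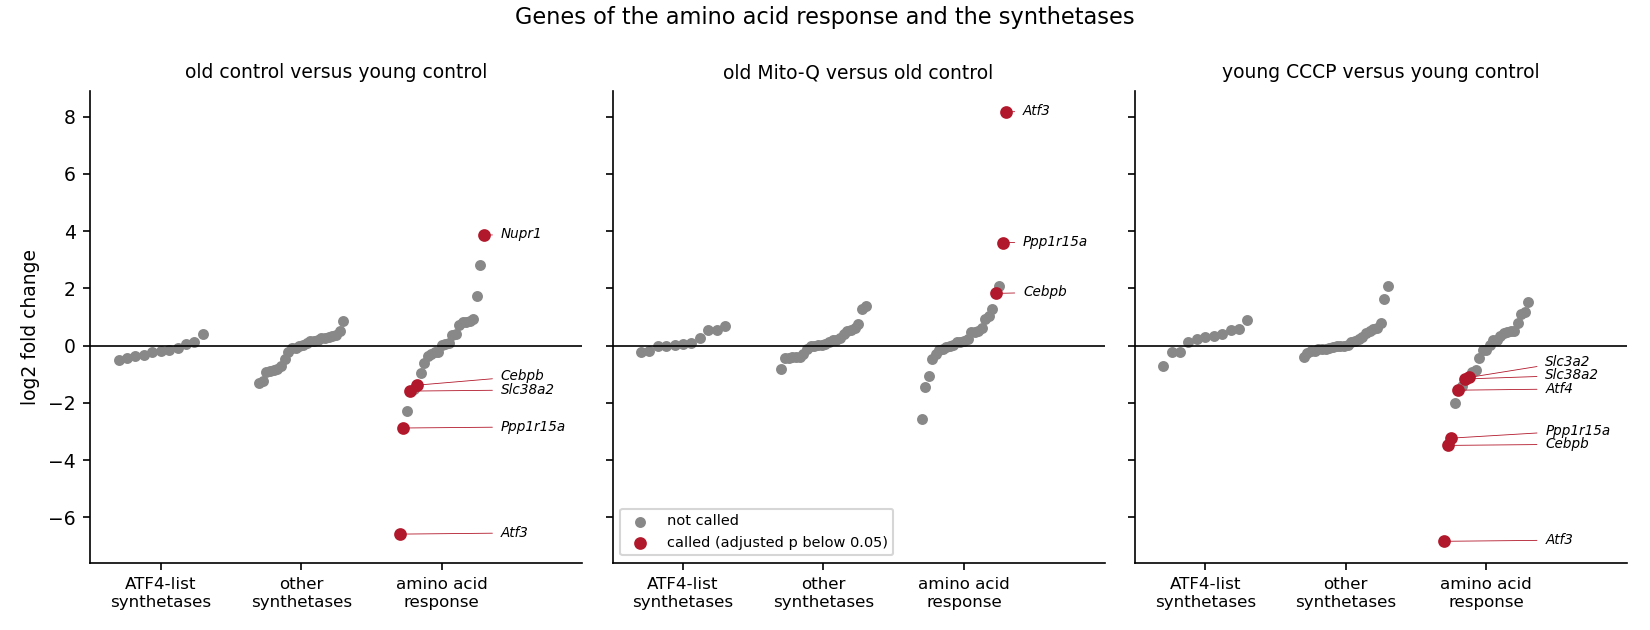
Log2 fold changes in the 3 comparisons of the 11 cytosolic synthetases listed as ATF4 targets, the other 24 synthetases and the 25 tested genes of the amino acid response, each sorted by value, with genes called by edgeR in red. The red points are response genes in all 3 panels, 5, 3 and 6 of them, and both synthetase sets are grey throughout.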

How the data were processed

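Per the submitters' processing notes, reads were trimmed with Trim Galore and aligned with STAR 2.7 to GRCm38. The authors deposited raw read counts by Ensembl gene; which counting program, annotation, strand setting and duplicate handling were used is not given in the sources used here. Reads assigned to no gene were kept apart. GENCODE M21, of the same build, named 54723 of the 54838 genes.

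A model over the 17 libraries (edgeR 4.0.16, R 4.3.3) used TMM scaling, a low-count filter (filterByExpr, 10 reads), robust quasi-likelihood dispersions and no covariate. A gene is called at a two-sided p below 0.05 after Benjamini-Hochberg adjustment over all 24523 genes. CPM values use TMM-scaled library sizes, log2 CPM a prior count of 2, and levels per kb the merged exon length. Shared stretches were sought with blastn 2.17.0 (at least 50 bases, 95% identity). No libraries of a group were duplicates (lowest chi-square per degree of freedom 20.9). Alternatives were other scalings, filters, DESeq2 1.42.0, limma-voom (limma 3.58.1), a replicate block, fewer groups and left-out libraries. The procedure was tested on simulated data.

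The members and lists were chosen with earlier results of these data known. Named genes are, per comparison, the 4 cytosolic and 4 mitochondrial members of smallest p, the 3 highest and lowest per compartment, the pairs, the called pathway genes and the 3 most abundant members of each list; Lars2 in every comparison, Gm15564, Gm4849 and mt-Rnr2 were chosen after their values were seen.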

Additional observations from a re-analysis of the deposited data

Results flagged for a closer look

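Of 117 groups of 4 or 5 values examined (each synthetase and 4 summaries of the set in each group), 9 held a library far from the others of its group. Chance alone sets apart about 1 in 20 such groups, so most of these may carry no meaning.

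Lars2 in young control 3 stood at 3812 CPM, with the next young control at 584 CPM. Nars2, the mitochondrial asparagine enzyme, was highest in young control 1 at 45.3 CPM, with the next at 26.6. Vars2 in young control 4 stood at 23.8 CPM, with the next at 7.49, which bears on its difference from CCCP. Summed cytosolic over mitochondrial CPM without Lars2 was highest in young control 2 at 4.28, with the next at 3.73.

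Young CCCP 3 was lowest of its group in 3 of the 9 cases. Dars stood there at 64.7 CPM with the next library at 197, Hars at 23.3 CPM with the next at 66.1, and the mean log2 CPM of the cytosolic genes at 6.19 with the next at 6.73. This library also had the largest share of reads in no gene, 65.5%, and the lowest sum of HSC markers, 1628 CPM.

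In old mice given Mito-Q, Iars2 was highest in library 1 at 113 CPM with the next at 49.6, and Pars2 lowest in library 5 at 11.4 CPM with the next at 18.1.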

How the results depend on the processing

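Calls of synthetases stayed at 0 in all 3 comparisons under every alternative run except DESeq2 with CCCP, which called 1, Iars (log2 fold change 0.96). Of 493 alternative values for 26 single-gene results, 487 kept their direction and side of the threshold and 5 turned. These were Lars2 in old against young HSCs (-1.56 to 0.19 leaving out 1 library, turned without young control 3, and 0.20 without the 4 libraries of highest Lars2), Lars2 with CCCP (-0.45 without those 4) and Mars2 with Mito-Q (-1.12 to 0.079 leaving out 1 library, turned without old control 1, and 0.11 without young CCCP 3, young control 3 and old control 1 together). Leaving out 1 library at a time, the cytosolic median ran from -0.22 to -0.02 in old against young HSCs, -0.10 to 0.13 with Mito-Q and 0.06 to 0.38 with CCCP, and the mitochondrial median from -0.27 to 0.02, -0.091 to 0.40 and -0.11 to 0.18. The lowest Mito-Q value was that without old control 1.

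The cytosolic excess in mean log2 CPM moved to 1.78 (young control), 1.86 (CCCP), 1.86 (old control) and 1.85 (Mito-Q) without Lars2. Called response genes with Mito-Q went from 3 to 6 with DESeq2, to 8 without the 3 libraries named above and to 5 without the 4 of highest Lars2; in old against young HSCs they ran from 3 to 5 when leaving out 1 library, with 3 without old control 2. The alternatives without the 4 libraries, without Lars2 and those for response genes were chosen after seeing the data.

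Over all genes, the 415 calls in old against young HSCs ran from 125 to 684 without single libraries and were 186 with only those groups fitted, 1260 with DESeq2, 2520 without the 3 libraries and 1029 without the 4. With Mito-Q the 133 calls ran from 79 to 142 and were 442, 1135 and 216 with DESeq2, without the 3 and without the 4. With CCCP the 176 calls were 324 without a filter, 556 with DESeq2 and 111 with only those groups. The median of all genes moved to 0.28 (old against young) and -0.25 (Mito-Q) with upper-quartile factors and to 0.33 (CCCP) with library totals, and without old control 1 to -0.35 and 0.31 in the comparisons of old mice; the cause was not tested.

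Same-numbered libraries deviated together with correlations of -0.11 to 0.12 across genes, so the numbers were taken as names only. With the replicate number as a block, 0 synthetases were called in each comparison and all-gene calls were 404, 130 and 168; response genes called stayed at 5, 3 and 6. Intervals within 2-fold were found for 2, 1 and 5 of 16 mitochondrial genes; the parts of depth and of spread between libraries in this were not separated.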
